A study of Mus musculus with 3 samples.

Results

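Mitotic transit-amplifying (TA) cells are the crypt progenitors caught close to division. They were selected on their measured values in single-cell RNA sequencing (scRNA-seq) of mouse intestinal epithelium: a barcode was a member when Mki67, Top2a, Ube2c, Nusap1, Cenpf and Prc1 together made up at least 0.1% of its unique molecular identifiers (UMIs, 1 per captured transcript) and the goblet genes Muc2, Clca1, Fcgbp, Zg16, Tff3, Agr2 and Spink4 together under 1%. Only barcodes with at least 1000 genes and at most 15% mitochondrial UMIs were kept. The rule set no limit on stem cell genes, so dividing stem cells may be among the members under the TA name. Of 5594 kept barcodes, 644 (11.5%) were members: 228 and 184 of the libraries Arid3a cKO 1 and Arid3a cKO 2, whose values are always given in that order, and 232 of WT. The Arid3a cKO mice carried VillinCreERT2 and 2 floxed Arid3a alleles (Arid3a fl/fl), and the WT control carried VillinCreERT2 alone. Villin drives this Cre in the intestinal epithelium, and tamoxifen, which switches it on, was given to both groups at 8-10 weeks of age. Tissue was taken 1 month after the first dose, and live Epcam-positive, CD45-negative and CD31-negative cells were sorted. WT was 1 library, so genotype and whatever else set that library apart cannot be told apart. The other WT replicate that the design names was not analysed here, and whether a library held 1 animal or several is not given in the sources used here.

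TA cells descend from the Lgr5-positive stem cells at the crypt base, divide several times on their way up the crypt and then exit the cell cycle as absorptive or secretory cells. The selecting genes act late in the cycle: Mki67 coats mitotic chromosomes, Top2a untangles sister DNA, Ube2c feeds ubiquitin to the anaphase-promoting complex (APC/C), Nusap1 and Prc1 bundle spindle microtubules and Cenpf sits at the kinetochore. Such genes are known to be held off in resting cells and switched on late in the cycle through 2 short promoter elements, the cell cycle genes homology region (CHR) and the CCAAT box, which the DREAM and MuvB complexes and the factor NF-Y bind.

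These elements can be read in the promoters of 3 of the selecting genes, shown because their transcripts chose the cells. Each run is the 200 bases ahead of the RefSeq start on the gene's own strand, 5′ to 3′, in build GRCm38.p6: Mki67 at chr7:135716380-135716579 (minus strand), Top2a at chr11:99024190-99024389 (minus strand) and Ube2c at chr2:164769729-164769928 (plus strand). Capitals mark every CHR match (TTTGAA or TTCGAA) and every CCAAT match on either strand, so that a match on the other strand reads TTCAAA or ATTGG, and in Ube2c a pair of opposed CCAAT boxes overlaps.
Mki67: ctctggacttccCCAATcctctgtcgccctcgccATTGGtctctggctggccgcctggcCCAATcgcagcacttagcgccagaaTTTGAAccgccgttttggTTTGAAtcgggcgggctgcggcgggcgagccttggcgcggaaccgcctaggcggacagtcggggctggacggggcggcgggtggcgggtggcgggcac
Top2a: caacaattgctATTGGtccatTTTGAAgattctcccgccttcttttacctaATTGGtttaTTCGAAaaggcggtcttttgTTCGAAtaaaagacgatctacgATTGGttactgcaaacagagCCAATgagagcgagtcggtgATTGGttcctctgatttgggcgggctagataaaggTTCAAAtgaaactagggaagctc
Ube2c: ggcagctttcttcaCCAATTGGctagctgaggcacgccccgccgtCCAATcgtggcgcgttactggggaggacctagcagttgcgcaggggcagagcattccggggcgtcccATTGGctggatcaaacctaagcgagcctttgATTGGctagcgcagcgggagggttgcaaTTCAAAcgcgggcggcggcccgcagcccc

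The windows held 2 CHR and 3 CCAAT matches in Mki67, 4 and 5 in Top2a, and 1 and 5 in Ube2c. Over the full promoter window (250 bases before to 50 after each start), both elements were present in 5 of the 6 selecting genes, with none of either in Nusap1. Among 76 promoters of 70 of the 85 mitotic genes that the rule did not use, 65.8% held a CHR, 72.4% a CCAAT box and 52.6% both. The shares over all 32851 promoters were 19.2%, 37.4% and 7.52%, and for 26 promoters of enterocyte genes they were 23.1%, 23.1% and 11.5%. A match is a run of letters and not a measured binding site.

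The summed UMIs of the members were 10330737 and 9613455 in the cKO libraries and 10003251 in WT. They were deep cells, with median UMIs of 42510 and 49643 in the cKO libraries and 38932 in WT. In crypt cells outside the members with stem markers (Lgr5, Olfm4, Ascl2 and Smoc2 together at 0.1% of UMIs or more) the medians were 23279 and 28742 in the cKO libraries and 23388 in WT, and in the kept cells of neither crypt class 31031 and 34797 in the cKO libraries and 29345 in WT. The median of genes per member was 6306 and 6552 in the cKO libraries and 6024 in WT, and mitochondrial UMIs took a median of 3.68% and 3.18% in the cKO libraries and 4.28% in WT. No cell barcode was shared between the members of different libraries, although 11 to 18 barcodes were shared per pair of libraries over all barcodes. A Scrublet doublet score above 0.25 was given to 14 of the 644 members (2.17%), and to 80 of all kept cells (1.43%).

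The selecting genes stood as follows, as a description of the rule. In counts per 1000000 UMIs of the summed members (CPM), Ube2c stood at 796 and 841 CPM in the cKO libraries and 729 CPM in WT. Top2a stood at 520.4 and 491 CPM in the cKO libraries and 571 CPM in WT. Mki67 stood at 461 and 389 CPM in the cKO libraries and 467 CPM in WT, so WT and Arid3a cKO 1 were close and Arid3a cKO 2 was lowest. Cenpf stood at 277, 238 and 263 CPM in the same order, Prc1 at 209, 194 and 205 CPM and Nusap1 at 174, 175 and 177 CPM, with the 3 Nusap1 values closest together. A Top2a UMI was seen in 99.1%, 100% and 98.7% of members and in 18.4%, 18.5% and 20.5% of the kept cells outside the crypt classes. The latter class also holds the marker-positive goblet cells and cells just under the marker limit, so its share is no clean background for a Top2a UMI. The goblet gene Zg16, a lectin that only goblet cells secrete in quantity, had a UMI in 85.1%, 82.1% and 98.3% of members and in 81.6%, 82.7% and 95.2% of the other kept cells, and its level in members was 65, 51.8 and 126 CPM against 5513, 9633 and 9365 CPM there.

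Around the limit the cells formed a continuum. The lowest members had a marker sum of 0.100008% and 0.101491% in the cKO libraries and 0.10006% in WT, and the highest cells just outside had 0.0985% and 0.0999% in the cKO libraries and 0.0963% in WT. The number of cells between 0.05% and 0.1% was 67 and 45 in the cKO libraries and 71 in WT. Between 0.1% and 0.2% it was 77 and 66 in the cKO libraries and 81 in WT, and at 0.2% or above it was 151 and 118 in the cKO libraries and 151 in WT (cells over the goblet limit left out of all 3 counts). The share of kept cells with no UMI of any of the 6 genes was 43.9% and 45.7% in the cKO libraries and 45.1% in WT.

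Markers of other cell types in the members were examined as a check of the label. Of 12 immune markers, 11, 10 and 9 were at 0 in the 3 libraries, and the sum of the list was 0.0968 to 0.416 CPM over the libraries, with the macrophage gene Lyz2 at 0 UMIs in each library and Ptprc, which encodes CD45, at 0, 3 and 1 UMIs. Stromal and endothelial markers summed to 0.300 to 0.581 CPM, with 8 of 10 at 0 in each library. Tuft markers summed to 14.5 to 18.8 CPM. Paneth markers reached 734 and 413 CPM in the cKO libraries and 1031 CPM in WT, against 40332 to 43334 CPM in the kept cells outside the crypt classes. Enteroendocrine markers reached 756 and 256 CPM in the cKO libraries and 561 CPM in WT, against 2509 to 6363 CPM. A few members carried either program at 1% of UMIs or more: 5 and 3 cells of the cKO libraries and 8 of WT.

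Members were next set beside the crypt cells with stem markers, which had a marker sum under 0.1%, goblet genes under 1% and Lgr5, Olfm4, Ascl2 and Smoc2 together at 0.1% or more (146, 85 and 110 cells in the 3 libraries). Because the same transcripts chose the members, these ratios are a description without a test. Of 5366 genes at 20 CPM or more in the members of each library, 253 (4.71%) were at least 2-fold higher than in the stem-marker cells in all 3 libraries, and 66 of the 74 mitotic genes outside the rule at that level were among them. Replication-dependent histone genes led: Hist1h2ab stood at 174 and 192 CPM in the cKO libraries and 182 CPM in WT, against 4.50, 8.11 and 5.34 CPM in the stem-marker cells, a ratio of at least 23.7 in each library. The linker histone gene Hist1h1b stood at 779 and 743 CPM in the cKO libraries and 864 CPM in WT, against 34.4, 41.3 and 37.1 CPM. The histone genes are near-identical copies, and UMIs may be split between them.

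Next, the mitotic machinery was taken part by part. Of the kinases and cyclins, Cdk1, the kinase that drives entry into mitosis, stood at 247 and 246 CPM in the cKO libraries and 223 CPM in WT (21.7, 24.3 and 28.9 CPM in stem-marker cells), and its partner Ccna2 at 154, 151 and 142 CPM (10.3, 8.11 and 15.7 CPM). Aurka, a spindle pole kinase, stood at 85.9, 95.2 and 90.2 CPM (4.76, 6.27 and 2.85 CPM). All 4 genes of the chromosomal passenger complex, which corrects faulty attachments of chromosomes, were at least 2-fold higher than in stem-marker cells in each library, with Birc5 at 448, 457 and 392 CPM (41.8, 27.7 and 38.5 CPM) and Aurkb at 101, 101 and 100.4 CPM (3.97, 5.16 and 4.99 CPM). So were all 10 cytokinesis genes, among them Cdca3 at 305, 308 and 247 CPM (38.1, 29.5 and 39.9 CPM) and Ect2 at 63.6, 52.2 and 63.8 CPM (11.9, 9.59 and 17.8 CPM), and 12 of 16 kinetochore and centromere genes, among them Cenpa, the centromeric histone, at 236, 232 and 205 CPM (39.7, 21.4 and 40.6 CPM). A smaller share of the APC/C genes reached that ratio, 4 of 13. That share was still above the 4.71% of all 5366 genes at 20 CPM or more. The kinesin Kif11 (112, 98.8 and 111 CPM) and Aspm (55.1, 43.9 and 50.1 CPM), both of which organise the spindle, were among the 15 genes with the largest ratio.

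Of the S phase genes, 7 of 47 were at least 2-fold higher in members, and the median over genes of the smallest of the 3 library ratios was 0.975. The sliding clamp gene Pcna stood at 95.7 and 90.6 CPM in the cKO libraries and 99.6 CPM in WT in members and at 79.1, 98.1 and 89.4 CPM in stem-marker cells, while Tyms, which makes thymidylate for DNA synthesis, stood at 172, 187 and 179 CPM against 61.1, 81.9 and 77.3 CPM. Stem cell markers were lower in members: none of 15 reached 2-fold, with a median of the smallest ratios of 0.328. Genes of this list that chose the stem-marker cells, such as Olfm4, were lower in members by that choice. Olfm4, a secreted stem cell glycoprotein that also helped to choose the stem-marker cells, stood at 311, 226 and 350.4 CPM against 1239, 1251 and 1184 CPM, and the ion transporter Slc12a2, which did not, at 470.3, 347 and 405 CPM against 1221, 1199.9 and 1052 CPM. Of the enterocyte genes, 11 of 23 were at least 2-fold higher than in stem-marker cells. Fabp1, a fatty acid carrier, stood at 453, 487 and 541 CPM against 117, 113 and 117 CPM in stem-marker cells and 12539, 12979.7 and 11486 CPM in the other kept cells. Dmbt1, a secreted mucosal scavenger glycoprotein, was highest in the members, at 1292, 1542 and 1335 CPM against 193, 215 and 337 CPM and 606, 608 and 672 CPM.

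**Figure D1:**
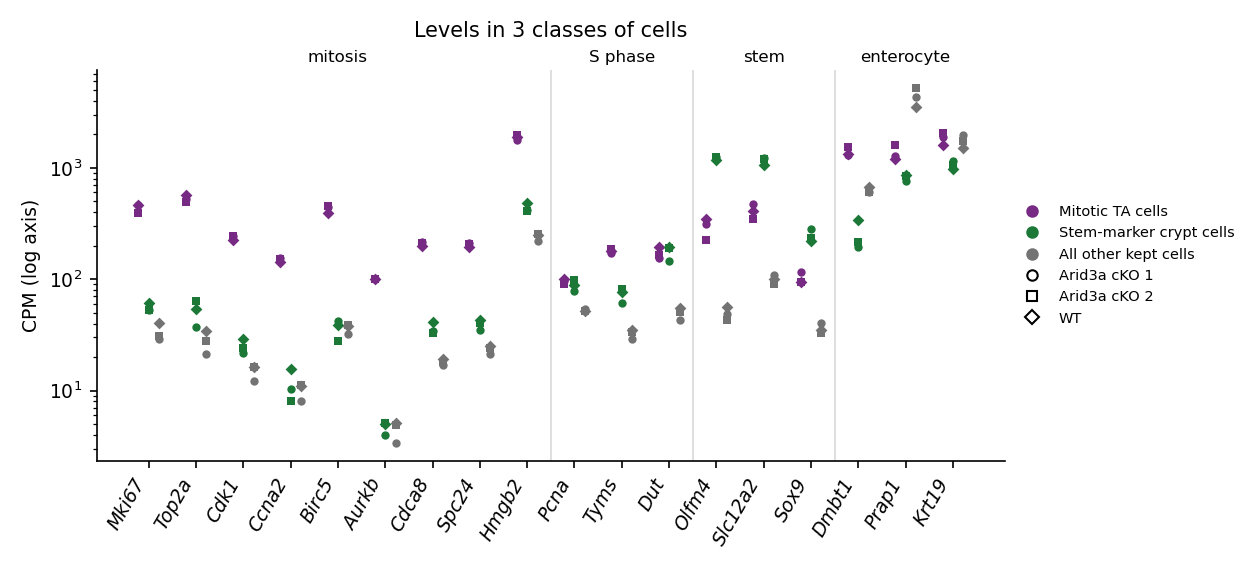
CPM on a log axis for 18 genes of mitosis, S phase, stem cells and enterocytes, in the summed mitotic TA cells (purple), stem-marker crypt cells (green) and all other kept cells (grey), with 1 symbol per library. The purple symbols of the mitosis genes sit above both other classes in all 3 libraries, those of the S phase gene Dut overlap with green, and those of the stem genes lie between green and grey.

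The members were not one cell cycle state. The 61 S phase genes and the mitotic genes outside the rule (83 of the 85 listed had counts) were summed in each member as a share of its UMIs. The S phase sum was above the mitotic sum in 41 of 228 members in Arid3a cKO 1, 18% (13.2 to 23.6%), in 32 of 184 in Arid3a cKO 2, 17.4% (12.2 to 23.7%), and in 41 of 232 in WT, 17.7% (13 to 23.2%). The brackets give exact 95% (Clopper-Pearson) intervals, which cover counting error only. All 3 intervals overlapped, and the mean of the cKO libraries lay 0.0145 percentage points from WT. After each member was thinned to 21000 UMIs, with 19, 10 and 19 shallower members left out, the shares were 14.8% and 14.9% in the cKO libraries and 15% in WT. The shares moved down together. The level also followed the marker limit: at a marker sum of 0.2% or more the shares were 8.61% and 5.08% in the cKO libraries and 6.62% in WT, and at 0.05% or more they were 21.4% and 26.6% in the cKO libraries and 25.4% in WT, and the libraries then lay farther apart.

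**Figure D2:**
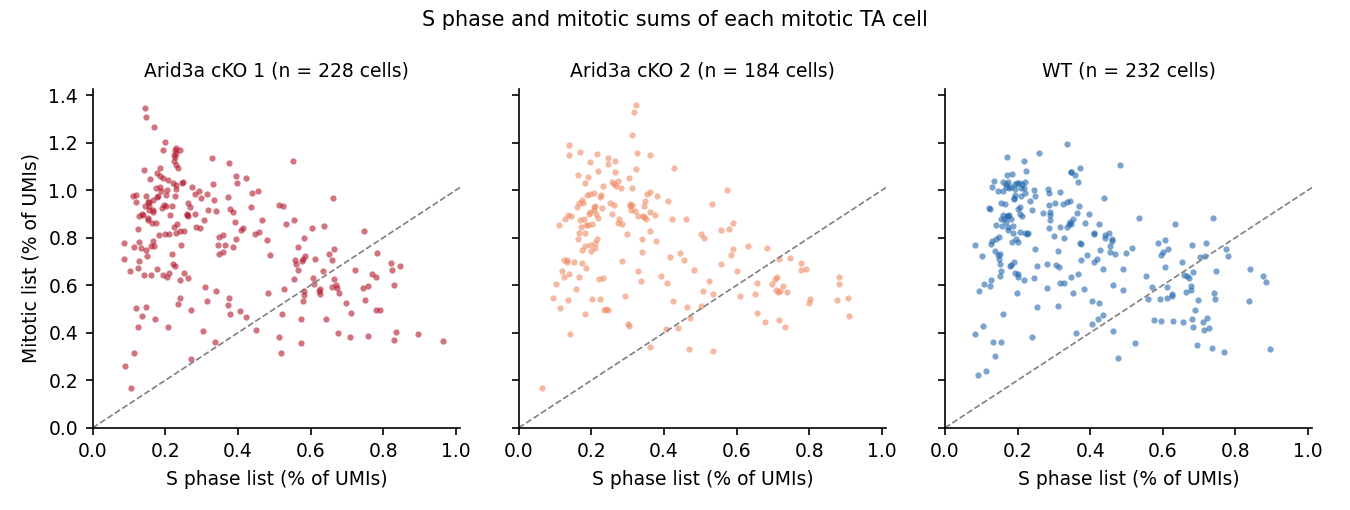
Each point is 1 mitotic TA cell, with its S phase sum (horizontal) and mitotic sum (vertical) as % of UMIs, in a panel per library; the dashed line marks equal sums. In each panel most cells lie above the line at low S phase sums, and 41, 32 and 41 cells in the 3 libraries lie below it.

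Members were then split by the S phase part of both sums: under 0.2 (G2M end, 76, 59 and 74 cells in the 3 libraries), 0.2 to 0.5 (middle, 111, 93 and 117 cells), and 0.5 or more (S phase end, 41, 32 and 41 cells). Genes on the lists define these bins, so their levels describe the split. Ccnb1, a cyclin that peaks at entry into mitosis, stood at 214, 198 and 203 CPM at the G2M end (cKO 1, cKO 2, WT), at 104, 110.4 and 104 CPM in the middle and at 31.1, 43.7 and 23.5 CPM at the S phase end. Cdc20, an activator of the APC/C, ran the same way, from 370.0, 338 and 301 CPM to 44, 43.7 and 47 CPM. The helicase gene Mcm6 ran the other way, from 14.7, 12.9 and 13.5 CPM to 222, 187 and 215 CPM. Among the selecting genes, Top2a was at 463, 393 and 495 CPM at the G2M end and 592, 589 and 627 CPM at the S phase end, and Mki67 at 457, 341 and 440.4 CPM and 446, 447 and 498 CPM, so neither marked the G2M end in particular. The 6 selecting genes together did. They summed to 3105, 2723 and 2931 CPM at the G2M end and 1666, 1594 and 1660 CPM at the S phase end.

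Genes of neither list also varied along this split. Hist1h1b stood at 347, 338 and 361 CPM at the G2M end and 1201, 1153 and 1425 CPM at the S phase end. The stem marker Olfm4 stood at 269, 147 and 264 CPM and 568, 369 and 505 CPM, and was higher at the S phase end in each library. The retinol carrier gene Rbp7 stood at 239, 225 and 239.8 CPM and 89.9, 113 and 96 CPM, and was higher at the G2M end in each library. The share of members with 0.1% or more of the 4 stem genes was 19.7% and 16.8% in the cKO libraries and 23.7% in WT. Such members met the stem gene limit of the stem-marker class and were kept out of it by their marker sum. Dividing stem cells may thus be counted with the members, and the stem-marker class holds only cells under the marker limit.

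To ask whether loss of Arid3a changed how many cells were dividing, shares were compared between the libraries. Members were 10.7% (9.40 to 12.1%) of kept cells in Arid3a cKO 1, 11.9% (10.3 to 13.6%) in Arid3a cKO 2 and 12.1% (10.7 to 13.7%) in WT. The intervals overlapped, and the mean of the cKO libraries differed from WT by -0.869 percentage points, less than the distance between the cKO libraries. Of the crypt cells alone (members and stem-marker cells), members were 61% (55.8 to 65.9%), 68.4% (62.5 to 73.9%) and 67.8% (62.6 to 72.8%) in the same order, so Arid3a cKO 2 lay above WT and Arid3a cKO 1 below. With 2 libraries against 1, an exact permutation test cannot go below a one-sided p of 0.333, so no test of these shares was made. Thinned to 21000 UMIs per cell, the shares of kept cells were 12.2% (10.7 to 13.8%), 13.6% (11.7 to 15.6%) and 14.6% (12.8 to 16.5%). With cells of at least 500 genes and up to 25% mitochondrial UMIs the order turned, with 10.1% and 9.63% in the cKO libraries and 9.50% in WT.

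**Figure D3:**
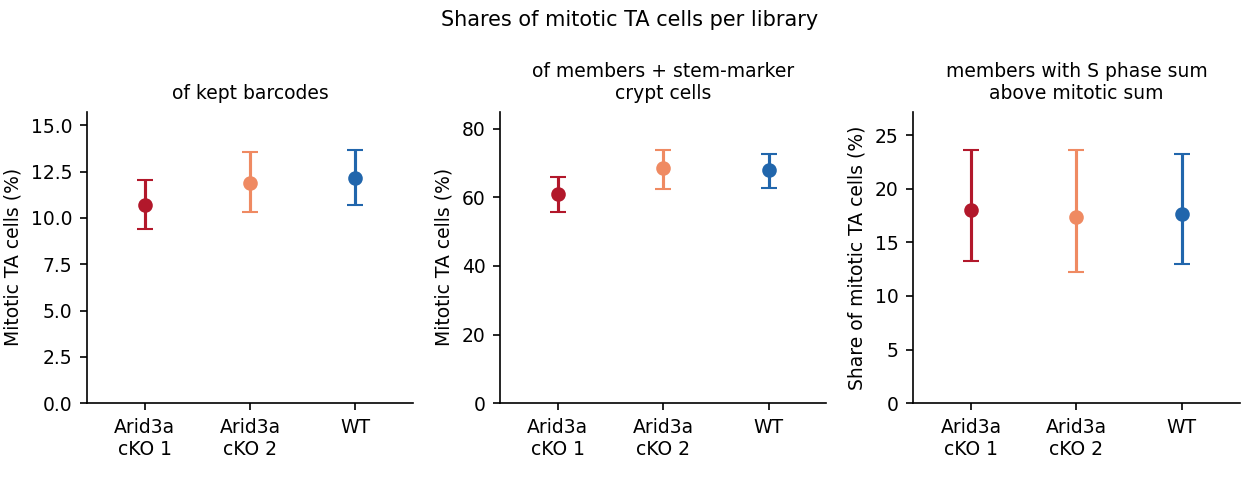
Shares of mitotic TA cells per library with exact 95% intervals: of kept cells (left), of members and stem-marker crypt cells together (middle), and the share of members whose S phase sum exceeds their mitotic sum (right). The intervals of all 3 libraries overlap in each panel.

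Within the members, UMIs were then summed per library and Arid3a cKO was compared with WT by edgeR's quasi-likelihood test over 12754 genes. The genes that drive division were not called: of 83 mitotic genes outside the rule and 61 S phase genes, none had an adjusted p (Benjamini-Hochberg over all genes tested) under 0.05, and their median log2 fold changes were 0.04 and -0.07, against 0.0028 over all genes. At an unadjusted p under 0.05 there were 0 and 1, and DESeq2 called 0 and 0. Of the 61 S phase genes, 35 lay below WT in both cKO libraries and 13 above WT in both. For the 83 mitotic genes these counts were 17 and 35, and for all 12754 genes tested 4148 and 4329. This lean of the lists was not tested. By edgeR, Pcna had log2 fold change -0.10, SE 0.17, adjusted p = 1.00, and Ccna2 had log2 fold change 0.10, SE 0.16, adjusted p = 1.00. Mki67, which helped to choose the cells, is given by its level alone (above). Arid3a itself had 2, 2 and 4 UMIs in the 3 libraries, too few to be tested, so the deletion could not be checked in these cells. Transcripts were counted near their 3′ end, which need not lie in the deleted part.

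Over all genes, 58 were higher in Arid3a cKO (0.455% of those tested) and 77 lower (0.604%), and 825 had an unadjusted p under 0.05. In 127 of the 135 both cKO libraries lay on the same side of WT, and in 100 the cKO libraries also lay closer to each other than to WT. In 22 a single cell gave at least 50% of the UMIs in the library with most of them. The 77 include 4 goblet genes used by the rule. With 1 residual degree of freedom the test takes the spread from the trend over genes, and the WT library is assumed to vary like the others. DESeq2 called 25 of the same genes (8 higher and 17 lower) and edgeR without scaling by the trimmed mean of M-values (TMM) 51 (18 and 33).

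**Figure D4:**
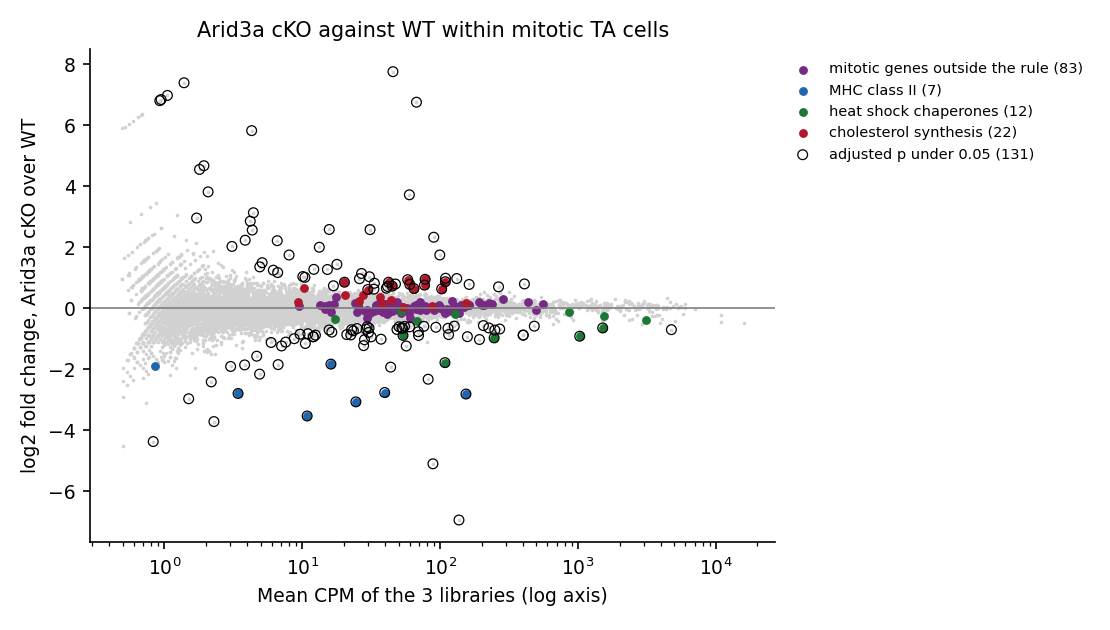
Log2 fold change of Arid3a cKO over WT (vertical) against mean CPM of the 3 libraries (horizontal, log axis) for the 12754 genes tested in mitotic TA cells, with gene lists in colour and open rings for the 131 genes outside the rule with an adjusted p under 0.05. Mitotic genes (purple) lie close to 0, MHC class II genes (blue) lie well below it, and the fitted values of called genes with 0 UMIs in WT are no measure of size. The floor on mitotic markers that chose the members in part set the level of the mitotic genes.

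MHC class II genes, which display peptides to helper T cells and which crypt epithelium can also express, were lower in the members of Arid3a cKO. Of 7 tested, 6 passed the test, all lower, with a list median of -2.79 (log2). The invariant chain gene Cd74 stood at 62.9 and 40.0 CPM in the cKO libraries and 359 CPM in WT, log2 fold change -2.81, SE 0.16, adjusted p = 5.2e-66 by edgeR. H2-Ab1 stood at 16.7 and 10.4 CPM in the cKO libraries and 91.8 CPM in WT (log2 fold change -2.76, SE 0.16, adjusted p = 6.8e-59). For the other chains, H2-Eb1 was at 9.97, 4.16 and 59.4 CPM (log2 fold change -3.06) and H2-Aa at 2.61, 2.18 and 27.8 CPM (-3.53). The peptide loaders H2-DMa (9.78, 7.70 and 31 CPM, -1.83) and H2-DMb1 (1.45, 0.832 and 8 CPM, -2.79) were lower too. In each of these genes both cKO libraries lay below WT, and Arid3a cKO 2 lay below Arid3a cKO 1. In Arid3a cKO 2 a single cell held 52.4% of the H2-Aa UMIs and 42% of the H2-Ab1 UMIs. In the members the immune markers stood near 0 in every library (above), with Ptprc at most 3 UMIs. In the other kept cells they summed to 3.54, 17.3 and 27.0 CPM (cKO 1, cKO 2, WT). The part of free RNA from those cells in the member values was not tested. A Cd74 UMI was seen in 51.3%, 28.3% and 93.1% of members against 32.2%, 21.8% and 68.8% of the other kept cells. H2-Eb1 and H2-DMb1 did not pass in DESeq2.

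The same genes were low outside the members as well. Cd74 stood at 102, 53.9 and 528 CPM in the stem-marker cells and at 50.8, 36 and 282 CPM in the other kept cells (cKO 1, cKO 2, WT). Tested against the stem-marker cells, the cKO effect in members differed by 0.02 (log2, SE 0.18) for Cd74 and by 0.23 (SE 0.23) for H2-Ab1, and none of the 7 genes passed.

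Of 19 MHC class I and interferon γ genes tested, 2 passed, both lower (1 of the 19 in DESeq2), and the list median was -0.40. Psmb8, a subunit of the immunoproteasome, passed in both edgeR and DESeq2 and stood at 95.5 and 86 CPM in the cKO libraries and 164 CPM in WT (log2 fold change -0.86, SE 0.16, adjusted p = 2.8e-05 by edgeR). The class I light chain B2m, at 449.8, 542 and 605 CPM, and the heavy chain H2-K1, at 257, 274 and 311 CPM, did not pass (log2 fold changes -0.29 and -0.23).

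Heat shock chaperones, which refold damaged proteins, were lower in the cKO members, 5 of 12 past the threshold, with a median of -0.39. Hsph1 stood at 53.8 and 66.1 CPM in the cKO libraries and 205 CPM in WT (log2 fold change -1.78, SE 0.16, adjusted p = 2.3e-25 by edgeR). Hsp90aa1 stood at 733 and 858 CPM in the cKO libraries and 1495 CPM in WT (log2 fold change -0.91, SE 0.16, adjusted p = 1.8e-06). Dnaja1 (189, 185 and 365 CPM, -0.97), Hspa4l (39.9, 44.1 and 77.5 CPM, -0.89) and Hspa8 (1195, 1351 and 1984 CPM, -0.64) were lower as well, and in each of the 5 both cKO libraries lay below WT. Hspa4l and Hspa8 did not pass in DESeq2, nor Hspa8 with the marker sum lowered to 0.05%. Hsp90ab1, a constitutive form of HSP90, was at 2770.1, 2884 and 3675 CPM and did not pass. The sum over the 13 genes of the list was highest in WT outside the members as well. It was 8120, 8908 and 9621 CPM in the stem-marker cells and 3639, 3768 and 5096 CPM in the other kept cells (cKO 1, cKO 2, WT). WT also had the highest median share of mitochondrial UMIs (above) and the highest level of the rRNA-like genes Gm42418 and Gm26917, at 17731 and 10878 CPM in the cKO libraries and 19595 CPM in WT. The part of these in the result was not tested.

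Genes of cholesterol synthesis, which dividing cells draw on for new membrane, were higher in the cKO members. This list of 22 genes was written after values had been seen, so its count is a description: 11 passed the test over all genes, all higher, and all 22 lay above WT in both cKO libraries, with a median of 0.63. Hmgcs1, an early enzyme of the pathway, stood at 143 and 114 CPM in the cKO libraries and 70.0 CPM in WT (log2 fold change 0.87, SE 0.17, adjusted p = 1.2e-04 by edgeR). Further down the pathway, Fdps was at 81.9, 96.7 and 52.6 CPM (0.76), Sqle at 52.9, 50.8 and 31.2 CPM (0.73), Cyp51 at 71.7, 66.9 and 36 CPM (0.94) and Msmo1 at 90.8, 95 and 47.9 CPM (0.95), and the sterol sensor Insig1 was at 69.3, 70.9 and 40.5 CPM (0.79). Also past the threshold were Mvd (0.86), Idi1 (0.64), Fdft1 (0.86) and Nsdhl (0.62). Ebp (155, 164 and 141 CPM) and Stard4 (90.5, 85.6 and 83.8 CPM) did not pass. For comparison, in the other kept cells Msmo1 stood at 60.8, 64.9 and 69 CPM and Hmgcs1 at 112, 91.7 and 115 CPM, with WT the highest library for both; in the stem-marker cells Hmgcs1 stood at 57.9, 39.8 and 33.1 CPM and Msmo1 at 30.7, 17.7 and 20.3 CPM. Of the 11, Hmgcs1, Cyp51 and Msmo1 passed in each of the 12 fits of all members or of members chosen with other settings, DESeq2 included. They were the only genes of the list that passed in DESeq2 (3 of 22).

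**Figure D5:**
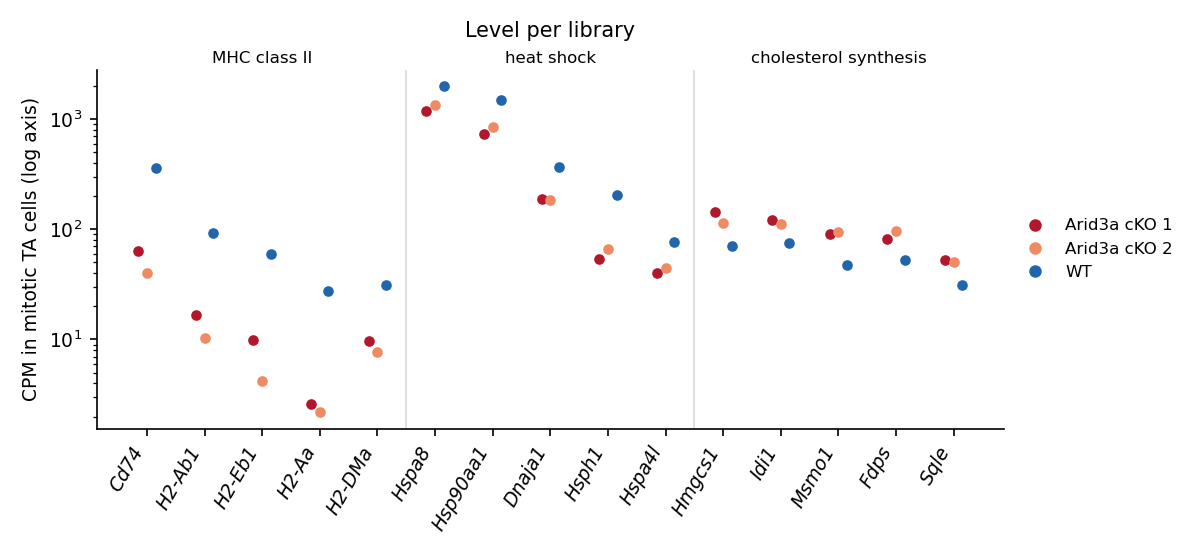
CPM (log axis) of single genes in the summed mitotic TA cells of each library, for MHC class II, heat shock and cholesterol synthesis. Both cKO libraries lie below WT in the first 2 groups and above WT in the third.

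Differentiation genes were changed in both directions. Of 30 enterocyte genes, 2 were higher and 3 lower, with a median of 0.04. The calcium binder S100g stood at 166 and 149.7 CPM in the cKO libraries and 79.9 CPM in WT (log2 fold change 0.98, SE 0.17, adjusted p = 4.2e-06 by edgeR), and both cKO libraries lay above WT. Reg1 was higher by the fit (352, 600.1 and 274 CPM, 0.80), although a single cell held 38.7% of its UMIs in Arid3a cKO 2. The antimicrobial lectin genes were lower: Reg3b stood at 43.8 and 26.6 CPM in the cKO libraries and 175 CPM in WT (log2 fold change -2.32, SE 0.16, adjusted p = 1.5e-42) and Reg3g at 136 and 151 CPM in the cKO libraries and 291 CPM in WT (log2 fold change -1.02, SE 0.16, adjusted p = 3.1e-08). Both were also lower than WT in the stem-marker cells, with Reg3b at 23, 19.5 and 87.6 CPM, and in the other kept cells, at 1326, 831 and 2876 CPM; the part of free RNA from those cells in the member values was not tested. The brush border peptidase Anpep was lower (38.3, 51.5 and 70.8 CPM, -0.66). Reg1 and Anpep did not pass without TMM scaling or in DESeq2. Krt19 (1889, 2042 and 1604 CPM), Krt8 (2305, 2342 and 1900.0 CPM) and Prap1 (1275, 1599 and 1204 CPM) did not pass.

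Among transcription factors of intestinal identity, 1 of 12 passed. Hes1, the Notch target that steers progenitors to the absorptive fate, stood at 165 and 216 CPM in the cKO libraries and 297 CPM in WT (log2 fold change -0.64, SE 0.16, adjusted p = 0.0057 by edgeR) and lay below WT in both cKO libraries, but did not pass without TMM scaling, in DESeq2 or with the marker sum lowered to 0.05%. Hnf4a (179.6, 151 and 174 CPM), Elf3 (338, 348 and 316 CPM) and Klf5 (350.3, 326 and 282 CPM) did not pass. None of the 18 stem cell markers tested passed in edgeR (6 at an unadjusted p under 0.05) or in DESeq2, and their median was -0.25: Olfm4 stood at 311, 226 and 350.4 CPM, Cdca7 at 115, 102 and 149 CPM and Sox9 at 116, 95.1 and 94.2 CPM. Cell cycle inhibitors did not pass either (0 of 12 in edgeR and DESeq2, 2 at an unadjusted p under 0.05), with Cdkn1a at 64.6 and 47.2 CPM in the cKO libraries and 39.2 CPM in WT (log2 fold change 0.51, SE 0.17, adjusted p = 0.23 by edgeR), and neither did the 20 proliferation transcription factors (2). Ccnd1, the cyclin that carries mitogen signals into the cycle, was lower, at 79.8 and 78.4 CPM in the cKO libraries and 121 CPM in WT (log2 fold change -0.62, SE 0.16, adjusted p = 0.019), and was named after its values had been seen.

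Secretory genes in the members were decided by few cells. Of 15 enteroendocrine markers tested, 6 were higher and 1 lower (1 passed in DESeq2), and the 9 secretory progenitor genes gave 1 higher, Neurog3, from 15, 37 and 1 UMIs. For the gut hormone gene Gip, 45, 21 and 4045 UMIs were counted, and a single WT cell held 96.7% of those in WT (log2 fold change -6.94). Sst was at 200.1, 1.14 and 0.900 CPM, with 99% of its UMIs in 1 cell of Arid3a cKO 1, and Cck at 231, 14.5 and 24 CPM, with 91.3% in 1 cell. Sct (236, 24.8 and 38.1 CPM, 81.2% in 1 cell) and Ghrl (32.8, 2.70 and 4.40 CPM, 56.9% in 1 cell) were likewise highest in Arid3a cKO 1. Chga was at 2.61, 83.3 and 7.20 CPM, with 96.3% in 1 cell of Arid3a cKO 2, and Tph1 at 1.55, 11 and 0.700 CPM, with 83% in 1 cell. These are values of single cells that met the rule and not of the members at large. Of 12 Paneth markers tested, 5 were lower (Mptx2, Itln1, Defa24, Defa30 and Lyz1), all 12 with a negative value and a median of -0.88. Itln1 was at 29.8, 26 and 56.1 CPM and the defensin gene Defa24 at 389.5, 239 and 574 CPM, but a single cell held 34.2%, 30.8% and 23.8% of the Defa24 UMIs. None of the 12 passed in DESeq2. All 5 turned direction in at least 1 alternative: at a marker sum of 0.05% Mptx2 was higher (log2 fold change 2.06, adjusted p = 1.6e-26 by edgeR), and with the limit on goblet genes lifted Defa24 (1.33), Itln1 (1.84), Defa30 (0.40) and Lyz1 (0.49) had positive values, of which those of Defa24 and Itln1 passed.

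The remaining genes with the largest changes were not part of any list. The mitochondrial gene mt-Nd3 stood at 5.90 and 8.84 CPM in the cKO libraries and 251 CPM in WT, and Gm28438 ran the opposite way, at 76.9 and 59.3 CPM in the cKO libraries and 0.300 CPM in WT. Both showed the same pattern in the other kept cells, at 8.78, 10.7 and 287 CPM and 98.6, 76.5 and 0.0200 CPM, and Gm28438, a copy of mitochondrial sequence, may share reads with its mitochondrial counterpart, so both are uncertain. BC064078 stood at 23.1 and 20.4 CPM in the cKO libraries and 3.60 CPM in WT (log2 fold change 2.59, SE 0.25, adjusted p = 2.5e-21 by edgeR), and the homeobox gene Nkx6-3 at 4.94 and 6.87 CPM in the cKO libraries and 0.800 CPM in WT (log2 fold change 2.86, SE 0.50, adjusted p = 3.6e-06). Fmr1nb was lower (0.871, 0 and 6 CPM), and Gm21887 higher (3.39, 1.46 and 0.300 CPM). For 4 genes WT had 0 UMIs, where 3 UMIs set the floor (0.300 CPM): Tshz2 was at least 4.64-fold higher, Onecut3 at least 4.74-fold, Nt5e at least 5.27-fold and Iapp at least 6.95-fold, each from few UMIs; Tshz2 had 18 and 10 in the cKO libraries, and 1 cell held all 42 Iapp UMIs of Arid3a cKO 1. Ambp, Slc2a3, Vim and Meg3 each rested on 1 cell for 87% or more of the UMIs in the library with most of them.

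Whether the cKO effect differed between the members and the stem-marker crypt cells was tested with an interaction term over 12719 genes. In 4 genes the difference of the effects passed (0.0314% of those tested), Gip, Dmbt1, Rbp4 and Cpe, and 576 genes had an unadjusted p under 0.05. The count was 1 to 39 over the alternatives and 2 in DESeq2. In WT a single member held 96.7% of the Gip, 91.3% of the Rbp4 and 74.6% of the Cpe UMIs, and none of these 3 passed once the top 5% of doublet scores were left out. Dmbt1 alone was abundant in both classes. Its level in the members was 1292 and 1542 CPM in the cKO libraries and 1335 CPM in WT, with a cKO effect of 0.09 (log2), and in the stem-marker cells it was 193, 215 and 337 CPM, so WT was the highest library there. The difference of the effects was 0.85 (log2, SE 0.14, edgeR adjusted p = 0.037).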

How the data were processed

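Single epithelial cells of 2 Arid3a cKO libraries and 1 WT library were profiled by 10x 3′ scRNA-seq. The deposited values are raw UMI counts per gene and barcode, made by the authors with CellRanger 5.0; the mouse build is not given in the sources used here. From these counts, 5594 of 25554 barcodes were kept and the members chosen, and both the members and the gene lists were chosen with earlier results of these data known. Counts were summed per library over the members (9613455 to 10330737 UMIs) and tested with edgeR 4.0.16 in R 4.3.3 (filterByExpr, TMM, quasi-likelihood, Benjamini-Hochberg, threshold 0.05). The same test with an interaction of class and genotype and library as a covariate compared members with stem-marker cells. Both were run on simulated data in which all libraries varied alike, so this could not check whether WT varies like the others. The series' design text names 2 biological replicates per condition, and 1 WT library was analysed here. The replicate was the library. In the fit of members, p-values rest on the trend of the spread over genes and not on each gene's own spread between libraries. Although the design text calls the replicates biological, nothing says how many animals each library held. How far that spread is a spread between animals is therefore not known.

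Alternatives were DESeq2 1.42.0, no TMM scaling, no filter on low counts, robust moderation, other limits on cells and markers, thinning, and leaving out doublet candidates (scanpy 1.11.5, the 5% with the highest Scrublet score; no doublets were removed otherwise), secretory-marker cells or 1 cKO library. Promoters came from RefSeq (GRCm38.p6); S phase and stem lists were left out there, because under 80% of their genes had a match. Genes named were those of the rule lists, Mki67, Pcna, Ccna2 and Arid3a, up to 12 per direction with the largest change among genes past the threshold and on the same side of WT in both cKO libraries, the 4 highest and all called genes of each list, up to 8 interaction genes, and the 15 most enriched in members. Fabp1, Ccnb1, Mcm6, Ccnd1, the cholesterol genes and those under other observations were chosen after their values were seen. Some results that passed the naming rule are not reported here.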

Additional observations from a re-analysis of the deposited data

Results flagged for a closer look

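For 4 genes the difference of the cKO effect between the members and the stem-marker crypt cells passed the interaction test of edgeR. The difference (log2, members minus stem-marker cells) was -7.44 for Gip, 0.85 for Dmbt1, -5.57 for Rbp4 and -5.17 for Cpe. Gip stood at 4.36, 2.18 and 404 CPM in members (cKO 1, cKO 2, WT) and 8.99, 5.53 and 4.99 CPM in stem-marker cells. Rbp4, a retinol carrier, stood at 5.61, 0.208 and 4.60 CPM and 19.6, 2.58 and 0.356 CPM, and Cpe, which processes prohormones, at 5.23, 2.50 and 5.90 CPM and 12.2, 5.90 and 0.356 CPM. In WT 1 cell held 96.7% of the Gip, 91.3% of the Rbp4 and 74.6% of the Cpe UMIs of the members. With the top 5% of doublet scores removed, the differences of these 3 were -1.30, -2.45 and -1.64, and none passed. With the secretory-marker cells left out instead, Gip passed at -2.71 (edgeR adjusted p = 0.003), and Rbp4 (-5.55, adjusted p = 0.59) and Cpe (-4.24, adjusted p = 0.71) did not. Gip passed in each other alternative, and Rbp4 and Cpe also missed the threshold in DESeq2 and at 10% mitochondrial UMIs. Dmbt1 passed without the top 5% of doublet scores (0.81) and in each other alternative fit except that with at most 10% mitochondrial UMIs, where its difference was 0.84 (edgeR adjusted p = 0.14). The adjusted p of Dmbt1 over the alternatives ran from 1.7e-11 to 0.14.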

How the results depend on the processing

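With 1 WT library and 1 residual degree of freedom, no alternative can show how WT animals vary. No paired analysis was possible because replicate number 1 alone occurs in both genotypes. The cKO minus WT difference in the share of kept cells (-0.869 points) became 0.384 with 500 genes and 25% mitochondrial UMIs and -1.71 thinned, and without 1 cKO library it ran from -1.46 to -0.276; in the share of crypt cells it ran from -6.87 to 0.565. In the S phase share (0.0145 points) the difference became 0.677 with the wide limits on cells, -1.42 with a marker sum of 0.05%, 1.19 with no goblet condition, and -0.281 to 0.310 without 1 cKO library. Genes called fell from 135 to 51 without TMM scaling and to 25 in DESeq2, and were 97 to 164 otherwise; no gene test was run without a cKO library, since no residual degree of freedom remains. The 4 interaction genes became 12 without TMM scaling, 37 without a filter, 2 in DESeq2, 1 at 10% mitochondrial UMIs, 33 with the wide limits, 21 at a marker sum of 0.05%, 12 at 0.2%, 39 without doublet candidates and 8 without secretory-marker cells. The S phase list median (-0.071) was -0.10 at a marker sum of 0.2%, -0.036 with no goblet condition and -0.11 without doublet candidates. The mitotic list median (0.037) was 0.041 without TMM scaling, 0.039 without a filter, 0.040 in DESeq2, 0.042 at 10% mitochondrial UMIs, 0.034 with the wide limits, 0.10 and -0.000996 at marker sums of 0.05% and 0.2%, 0.035 with no goblet condition, 0.045 without doublet candidates, 0.043 without secretory-marker cells and 0.039 to 0.041 without 1 cKO library. The MHC class II median stayed within -3.22 to -2.48 in all alternatives run. Of the 135 genes past the threshold, named or not, 24 passed in each of the 12 fits. Direction reversed (log2 fold change) at a marker sum of 0.05% for Defa24 (0.16), Defa30 (0.059), Itln1 (0.083), Mptx2 (2.06) and Sct (-0.90); with no goblet condition for Defa24 (1.33), Defa30 (0.40), Lyz1 (0.49), Defa17 (1.89) and Itln1 (1.84); and without secretory-marker cells for Lyz1 (0.079), Cck (-0.43) and Chga (-1.33). Without 1 cKO library Sct ran from -0.60 to 2.60, Cck from -0.71 to 3.24, Ghrl from -0.68 to 2.87 and Chga from -1.49 to 3.55. Apart from the few-cell genes, the cause was not tested.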

Other observations

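Some genes outside the lists also passed the test in the members and are given here, chosen after their values were seen. Ifitm3, an antiviral membrane protein induced by interferon, stood at 306 and 319.9 CPM in the cKO libraries and 574 CPM in WT (log2 fold change -0.88, SE 0.15, adjusted p = 4.2e-06 by edgeR). H2-Q7, a class I-like gene, stood at 4.26, 2.91 and 12.9 CPM (-1.84), the interferon regulatory factor gene Irf9 at 11.7, 7.80 and 17.9 CPM (-0.88), the GTPase gene Ifi47 at 9.20, 9.36 and 17.6 CPM (-0.93) and the ubiquitin ligase gene Dtx3l at 14.2, 12.3 and 22.7 CPM (-0.78). In each of these both cKO libraries lay below WT. The cytokine gene Il18 was lower too (9.68, 16.2 and 21.1 CPM, -0.71).

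On the same side, Chordc1 (49.9, 58.9 and 100.5 CPM, -0.89), Stip1 (85.5, 106 and 151 CPM, -0.65) and Ahsa2 (19, 23.1 and 42.8 CPM, -1.03), which assist HSP90, were lower in the cKO members. The metallothionein gene Mt2 stood at 25 and 20.4 CPM in the cKO libraries and 86 CPM in WT (log2 fold change -1.93, SE 0.16, adjusted p = 2.9e-29 by edgeR), and Mt1 at 443, 386 and 618 CPM (-0.58). Of the 14 immediate early genes, which respond first to stimulation or stress, Atf3 alone passed, higher, at 389.9 and 220.4 CPM in the cKO libraries and 186 CPM in WT (log2 fold change 0.71, SE 0.16, adjusted p = 0.0027), with the cKO libraries farther from each other than Arid3a cKO 2 was from WT, while Fos stood at 1497, 1199 and 1306 CPM and Jun at 1674, 1340.3 and 1489 CPM. Cirbp, a cold-inducible RNA-binding protein, was higher (61.2, 49.5 and 31.7 CPM, 0.80), as was Pdx1, a factor of the proximal intestine (39.6, 34.5 and 18 CPM, 1.04). Erdr1 (132, 131 and 66 CPM, 0.99) and Mid1 (12.8, 32.5 and 8.30 CPM, 1.44), which lie in or at the edge of the pseudoautosomal region, were higher as well.

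The goblet condition set aside 51 cells that met the marker sum, 16, 18 and 17 in the 3 libraries. The median share of goblet genes in their UMIs was 5.39% and 3.74% in the cKO libraries and 4.26% in WT. The median share of the 6 mitotic markers was 0.243% and 0.178% in the cKO libraries and 0.211% in WT, and among the members it was 0.240% and 0.243% in the cKO libraries and 0.242% in WT. Their median UMIs were 39527 and 48742 in the cKO libraries and 47112 in WT.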
